A study of Mus musculus with 38 samples.

Results

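Somatostatin (Sst) and 9 genes that carry its signal or mark the neurons that make it were followed in 38 RNA-seq libraries of mouse medial prefrontal cortex. The 10 genes were chosen by name, out of 57010 gene IDs in the count table. They are the peptide genes Sst, Cort and Npy, the receptor genes Sstr1, Sstr2, Sstr3 and Sstr4, and Nos1, Chodl and Elfn1, which are active in subsets of somatostatin neurons. The study crossed genotype with chronic variable stress (CVS), a changing schedule of stressors over 21 days, in each sex. Each library came from the cortex of 1 mouse, taken from the CVS mice 24 h after the last stressor. The mutant mice were SSTCre:γ2f/f, in which Cre recombinase acts on floxed γ2 alleles, and the controls were SSTCre. Both genotypes therefore carried the Cre, which is active where the Sst gene is, and mice without Cre were not part of the design. No strain background or age is stated in the labels. The female groups held 5 mutant CVS, 5 control CVS, 5 mutant non-stressed (NS) and 5 control NS mice. The male groups held 4 mutant CVS, 6 control CVS, 3 mutant NS and 5 control NS mice.

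Somatostatin neurons are inhibitory interneurons that mostly contact the dendrites of excitatory cells and release the peptide along with GABA. The peptide acts on receptors coupled to inhibitory G proteins, which lower cAMP, open inwardly rectifying potassium channels and close calcium channels. In cortex the level of Sst mRNA depends on neuronal activity, partly through a cAMP response element in its promoter, and low Sst expression has long been described in the brains of people with depression.

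The element can be read in the RefSeq promoter windows of build GRCm38.p6, which cover 250 bases before to 50 bases after each annotated start. Of the 10 genes, 9 have such a window. The 100 bases before the start of 3 of them are shown because the Sst and Sstr2 promoters hold the element and the promoter of Npy, another peptide gene of these cells, does not. Capitals mark the element TGACGTCA, which reads the same on both strands.
Sst, chr16:23890845-23890944, minus strand: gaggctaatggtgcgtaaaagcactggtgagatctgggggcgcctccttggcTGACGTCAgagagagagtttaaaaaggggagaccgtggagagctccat
Sstr2, chr11:113619227-113619326, plus strand: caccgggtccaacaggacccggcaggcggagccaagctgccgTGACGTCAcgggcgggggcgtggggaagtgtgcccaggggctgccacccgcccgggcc
Npy, chr6:49822610-49822709, plus strand: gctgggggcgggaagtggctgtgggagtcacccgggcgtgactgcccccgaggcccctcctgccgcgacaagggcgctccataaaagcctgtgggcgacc
The element starts at position -48 in Sst and at -58 in Sstr2. It occurs in 588 of 32851 windows in the table, or 1.79%. The shorter core TGACG, searched on both strands and contained in the full element, is found in 20.8% of windows. Cort, Nos1 and Sstr3 hold the core without the full element, at -18, -130 and -9. Sstr3 has a further window, chr15:78541357-78541656, which does not hold the core. A match describes the letters of a window and not a bound site.

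The libraries held 17644294 to 27509737 counts each. The tissue label could be set against marker genes. The 12 markers of cortical excitatory neurons, such as Slc17a7 and Tbr1, summed to between 6278 and 7603 CPM (counts scaled to the same library total) in mutant and between 6553 and 7886 CPM in control libraries. Cdhr1, a marker of olfactory bulb output neurons, reached 25.2 CPM in replicate 2 and 26.4 CPM in replicate 3 of the male mutant NS mice, and 15.9 CPM in replicate 1 of the male control CVS mice. The remaining libraries had 1.73 to 5.34 CPM of Cdhr1. The 8 olfactory bulb markers, Cdhr1 among them, summed to at most 29.9 CPM in male mutant and 20.1 CPM in male control libraries. In females the sums reached 8.63 CPM in mutants and 8.66 CPM in controls. Of the 4 markers tested, 2 were higher and 2 lower in male mutant NS than in male control NS mice. Whether the 3 libraries with high Cdhr1 held olfactory bulb tissue was not tested. For the 10 genes, where leaving out these 3 libraries ended a call, turned the sign of an estimate described below or moved it by over 1.5 times, the value without them is given. For the other listed genes this is done for the calls by genotype that were lost.

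Per kilobase of exon, Sst was the most abundant of the 10 transcripts, at 183 ± 17.7 CPM per kb (SD, n = 38). Npy followed at 115 ± 13.2 CPM per kb. Npy encodes neuropeptide Y, an inhibitory peptide made by a subset of somatostatin neurons and by neurogliaform interneurons. A wide step separated these from the next genes. Sstr1 stood at 11.8 ± 1.39, Cort at 10.3 ± 3.21, Sstr4 at 9.80 ± 1.32 and Elfn1 at 9.70 ± 1.26 CPM per kb. Sstr3 had 7.84 ± 0.615, Sstr2 had 7.76 ± 1.36 and Nos1 had 6.30 ± 0.747 CPM per kb. From Sstr1 to Nos1, neighbours in this order differed by less than the larger of their SDs, except Sstr3 from Elfn1 and Nos1 from Sstr2. Chodl, a gene of the rare long-range projecting somatostatin cells, had 0.116 ± 0.0428 CPM per kb and 5 to 26 counts in a library. The receptor gene Sstr5 is not among the 10. It had 0 to 11 counts in a library and was too low to test.

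**Figure D1:**
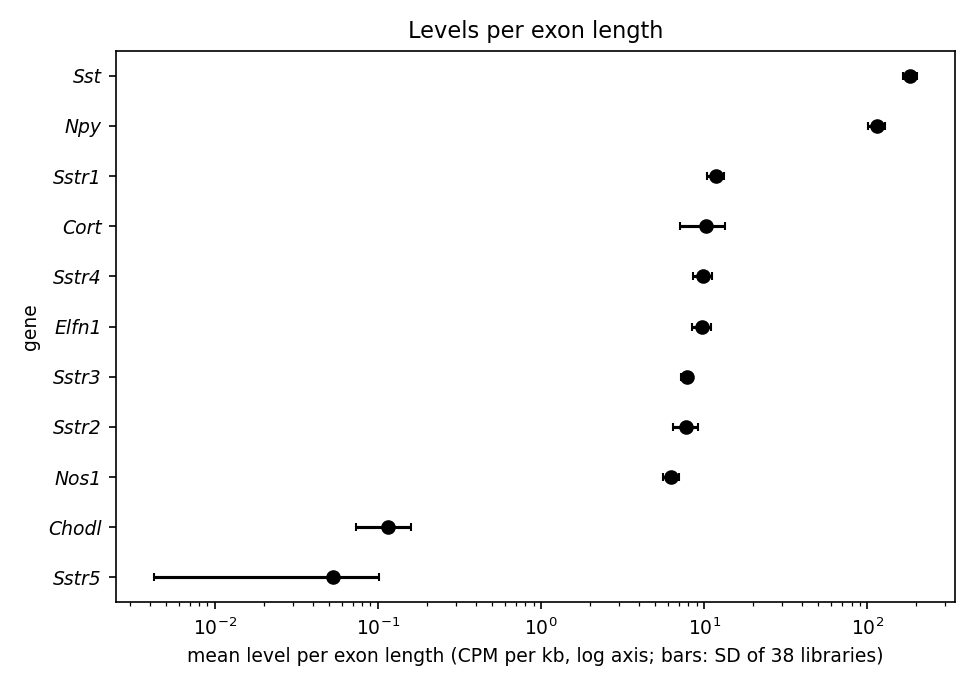
Mean level of the 10 genes and of Sstr5 per kilobase of exon, in CPM per kb on a log axis, with bars for the SD over all 38 libraries. Sst at 183 and Npy at 115 CPM per kb stand apart from the receptors, and Chodl and Sstr5 lie below 1.

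The genotype comparison asks how transcripts of somatostatin cells and of the cells they signal to differed between SSTCre:γ2f/f and SSTCre cortex. By these names only the mutants carried floxed alleles. The recombination of these alleles and other differences tied to the floxed locus therefore cannot be told apart. Sst was higher in mutant than in control cortex. In female CVS mice, Sst stood at 146.5, 160.5, 136.6, 133.8 and 122.1 CPM in mutants, against 128.3, 122.7, 118.1, 135.6 and 132.7 CPM in controls. In female NS mice the values were 131.5, 132.9, 147.6, 143.4 and 134.9 CPM in mutants, against 144.9, 111.7, 129.4, 123.1 and 121.1 CPM in controls. The female groups overlapped in both conditions. With CVS, 2 mutants lay within the control range, and without stress 1 control lay within the mutant range.

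In male CVS mice, Sst stood at 124.2, 147.3, 139.6 and 153.9 CPM in mutants, while the 6 controls ran from 104.9 to 132.1 CPM with a median of 124.0 CPM. In male NS mice the mutants had 141.3, 157.7 and 144.8 CPM, against 113.0, 126.3, 122.2, 124.2 and 130.2 CPM in controls. The male NS groups did not overlap, and in the male CVS groups only the lowest mutant lay within the control range. How large a share of all genes is without overlap in groups of this size was not counted. Of the 3 male mutant NS mice, replicates 2 and 3 are libraries with high Cdhr1, so that without them 1 mutant is left in that group. Counted over both sexes, 16 of 17 mutant libraries lay above the mean of the controls of their own sex and stress condition, the exception being female mutant CVS replicate 5.

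**Figure D2:**
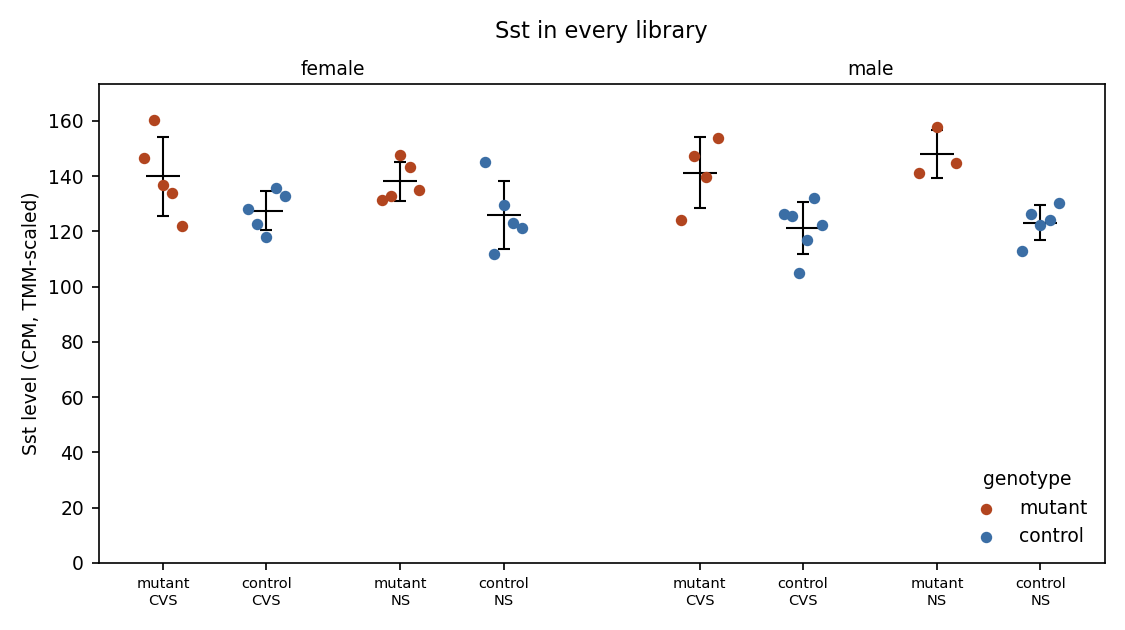
Sst level in CPM, scaled by trimmed mean of M values (TMM), in each of the 38 libraries, one point a mouse, with the group mean and SD as a line and bars. Mutant groups stand left of their controls, and in males without stress the lowest mutant, at 141.3 CPM, lies above the highest control, at 130.2 CPM.

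Averaged over the 4 combinations of sex and stress, Sst was 1.14-fold higher in mutants, a log2 fold change of 0.19 ± 0.034 (SE), with an adjusted p of 0.00143 in edgeR's quasi-likelihood test. All adjusted p-values are Benjamini-Hochberg values over all genes tested, and a gene is called where this value is under 0.05. Sst was 1 of 10 members called, while 1.09% of the 17671 genes tested were called in this comparison. The call held in each of 38 fits that left out 1 library, with log2 fold changes from 0.17 to 0.20, and without the 3 libraries with high Cdhr1, at 0.17 and an adjusted p of 0.0411. Since the tissue was measured in bulk, fewer cells of a type and less RNA per cell cannot be told apart, and neither can more cells and more RNA per cell.

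In males alone, Sst was 1.18-fold higher in mutants, with a log2 fold change of 0.24 ± 0.049 and an adjusted p of 0.0231. It was again the 1 member called, against 0.141% of all genes. This call was lost without the 3 libraries with high Cdhr1, at a log2 fold change of 0.21 and an adjusted p of 0.289. It was also lost without male mutant NS replicate 3 (adjusted p = 0.125), without male mutant CVS replicate 4 (adjusted p = 0.0527) and with no filter on low counts (adjusted p = 0.0606). In females the log2 fold change was 0.13 ± 0.046 with an adjusted p of 0.261, so that no member was called by edgeR, against 0.407% of all genes. DESeq2 and limma voom called 0 members there as well, while 5 members had an unadjusted p under 0.05, as did 10.1% of all genes.

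The effect of genotype on Sst was not shown to differ between the sexes. The male minus female difference was 0.11 ± 0.067 on the log2 scale, with an adjusted p of 0.713 in edgeR. No member was called for such a difference by edgeR, DESeq2 or limma voom, against 0.00566% of all genes in edgeR, and 1 member, Sstr2, had an unadjusted p under 0.05, as did 8.01% of all genes. No source states whether males and females were handled as 1 cohort, so that sex and any difference between cohorts cannot be told apart. In fits of each sex by itself, the log2 fold changes of Sst were 0.13 in female CVS, 0.13 in female NS, 0.21 in male CVS and 0.27 in male NS mice. The male NS value was 0.19 without the libraries with high Cdhr1 (adjusted p = 0.835 in edgeR). None of the 4 passed the threshold in edgeR, where the lowest adjusted p was 0.311, and no other member passed in these fits. The share of all genes called was 0.0243% in female CVS, 0.128% in female NS, 0.0523% in male CVS and 0.0174% in male NS mice. At an unadjusted p under 0.05, 1 member in female CVS, 2 in female NS, 3 in male CVS and 1 in male NS mice passed, beside 7.08%, 8.07%, 7.62% and 6.13% of all genes in the same order, and DESeq2 and limma voom called 0 in each.

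Sst was also set against Gad1 plus Gad2, which encode the enzymes that make GABA in all inhibitory neurons. Per 100 counts of Gad1 plus Gad2, mutant libraries had 35.1 ± 4.24 and control libraries 31.0 ± 1.86 counts of Sst in female CVS mice (SD, n = 5 each). In female NS mice the ratio was 35.0 ± 0.820 in mutants and 29.8 ± 3.38 in controls (n = 5 each). In male CVS mice it was 32.5 ± 3.48 in 4 mutants and 26.7 ± 3.50 in 6 controls, and in male NS mice 32.9 ± 0.785 in 3 mutants and 28.1 ± 1.94 in 5 controls. The mutant mean was thus the higher in every stratum. Two-sided exact permutation tests gave p = 0.0952 in female CVS, 0.0238 in female NS, 0.0286 in male CVS and 0.0357 in male NS mice, the last being the smallest value that 3 against 5 mice allow. Adjusted over these 4 tests, the values were 0.0952 for female CVS and 0.0476 for each of the other 3. With genotypes permuted within strata, the mean log2 ratio was 0.23 higher in mutants, with a permutation p of 1e-05, the smallest that 100000 permutations can give. With Slc32a1, the vesicular GABA transporter, in place of the Gad genes the difference was 0.26, with Lhx6, a transcription factor of interneurons born in the medial ganglionic eminence, it was 0.24, and without the 3 libraries with high Cdhr1 it was 0.24. The estimates of Gad1, Gad2 and Slc32a1 themselves, given below, were under 0 and not called, so the ratios take in these lower denominators. All of these ratios use the same Sst counts and are not independent.

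Markers of other cells were compared in the same way. All 8 oligodendrocyte, all 7 astrocyte, all 7 microglial and all 6 endothelial markers had a log2 fold change below 0. Of these edgeR called 2, both astrocyte genes, beside 1.09% of all genes tested. S100b fell by 0.14 (adjusted p = 0.00166) and Slc1a2 by 0.10 (adjusted p = 0.0354), and Slc1a2 stood at -0.06 without the 3 libraries with high Cdhr1 (adjusted p = 0.377 in edgeR). Mog, an oligodendrocyte gene, stood at -0.24 (adjusted p = 0.0663 in edgeR) and was called by DESeq2 and limma voom. The summed oligodendrocyte markers ran from 527 to 936 CPM in mutants and from 607 to 963 CPM in controls, and the summed astrocyte markers from 3694 to 4844 CPM in mutants and from 4100 to 5175 CPM in controls. Among striatal markers, Tac1 was lower in mutants (-0.27, adjusted p = 0.0211 in edgeR). The summed striatal markers ran from 130 to 163 CPM in mutants and from 134 to 160 CPM in controls. Their part in the genotype result of Sst was not tested.

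Neither of the other peptide genes was called by edgeR. Npy stood at 67.4, 59.0, 57.7, 53.6 and 50.1 CPM in female mutant CVS and at 54.6, 55.8, 58.5, 63.8 and 61.0 CPM in female control CVS mice. It stood at 62.8, 65.9, 60.9, 62.4 and 54.9 CPM in female mutant NS and at 62.9, 70.1, 83.5, 71.4 and 73.7 CPM in female control NS mice. Without stress, 4 of the 5 female controls lay above all mutants, and with CVS all 5 controls lay within the mutant range.

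In males, Npy stood at 57.4, 60.2, 60.5 and 67.4 CPM in mutant CVS mice, against a range of 56.7 to 76.0 CPM with a median of 69.1 CPM in 6 control CVS mice. Male mutant NS mice had 65.3, 72.8 and 65.2 CPM, and male control NS mice 70.1, 66.8, 73.9, 71.6 and 77.2 CPM. In all, 14 of 17 mutant libraries lay below the mean of their own controls. The log2 fold change was -0.13 ± 0.037 and did not pass the threshold (adjusted p = 0.0727 in edgeR). It passed in DESeq2 (adjusted p = 0.0422), which called 3 of 10 members, against 1.87% of the genes it tested. It also passed in edgeR without male control CVS replicate 3 (0.0197), male mutant CVS replicate 4 (0.0425), female control NS replicate 1 (0.0301) or female mutant CVS replicate 1 (0.0196), given as adjusted p. Cort, which encodes cortistatin, a relative of somatostatin that binds the same receptors, had a log2 fold change of -0.12 ± 0.13 (adjusted p = 0.830 in edgeR), and it turned to 0.03 without the 3 libraries with high Cdhr1.

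None of the 4 receptor genes was called by genotype in edgeR, DESeq2 or limma voom. Sstr1 had a log2 fold change of -0.08 ± 0.040 (adjusted p = 0.410) and Sstr3, whose protein sits in the primary cilium of neurons, -0.08 ± 0.033 (adjusted p = 0.335). Each lay below the mean of its own controls in 14 of 17 mutant libraries and had an unadjusted p under 0.05, as did 11.2% of all genes. Sstr4 stood at 0.07 ± 0.054 (adjusted p = 0.717), and at -0.0010 without the 3 libraries with high Cdhr1. Sstr2, the main target of the drug octreotide, had 0.01 ± 0.080 (adjusted p = 0.992). Its estimate differed in sign between the sexes, at 0.18 ± 0.11 in females and -0.17 ± 0.12 in males, but the difference of -0.35 ± 0.16 did not pass (adjusted p = 0.609 in edgeR). Without the 3 libraries with high Cdhr1 the estimate of Sstr2 was -0.36 in males and -0.09 over both sexes, and the difference between the sexes was -0.54 ± 0.18 (adjusted p = 0.436).

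Of the genes of somatostatin cell subsets, Nos1 was the one with the largest estimate. It encodes neuronal nitric oxide synthase. Nos1 stood at 70.3, 76.0, 71.1 and 72.2 CPM in male mutant CVS mice, while the 6 male control CVS mice ran from 46.8 to 71.2 CPM with a median of 60.4 CPM. These groups overlapped by 1 control. Male mutant NS mice had 74.2, 68.9 and 80.6 CPM, against 78.3, 68.2, 68.8, 65.5 and 68.7 CPM in male control NS mice.

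In females, Nos1 stood at 73.8, 77.0, 63.2, 84.9 and 72.3 CPM in mutant CVS, against 73.5, 64.5, 77.9, 82.3 and 64.8 CPM in control CVS mice. It stood at 70.1, 79.0, 78.1, 71.1 and 84.3 CPM in mutant NS, against 72.4, 64.4, 62.1, 69.3 and 68.2 CPM in control NS mice. The groups overlapped in both conditions. Over all strata the log2 fold change of Nos1 was 0.15 ± 0.047 and did not pass in edgeR (adjusted p = 0.138), though it did in DESeq2 (adjusted p = 0.0382), and 14 of 17 mutant libraries lay above the mean of their own controls. The exons of Nos1 overlap those of Gm26995 on the opposite strand over 268 bases in the GRCm38 annotation, and no source states whether counting used strand, so reads there cannot be told apart. Elfn1, whose protein gathers metabotropic glutamate receptors on the excitatory terminals that reach somatostatin cells, had -0.07 ± 0.041 (adjusted p = 0.575), and -0.13 ± 0.045 without the 3 libraries with high Cdhr1 (adjusted p = 0.223). Chodl had -0.02 ± 0.18 (adjusted p = 0.986), and 0.0048 without those libraries.

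**Figure D3:**
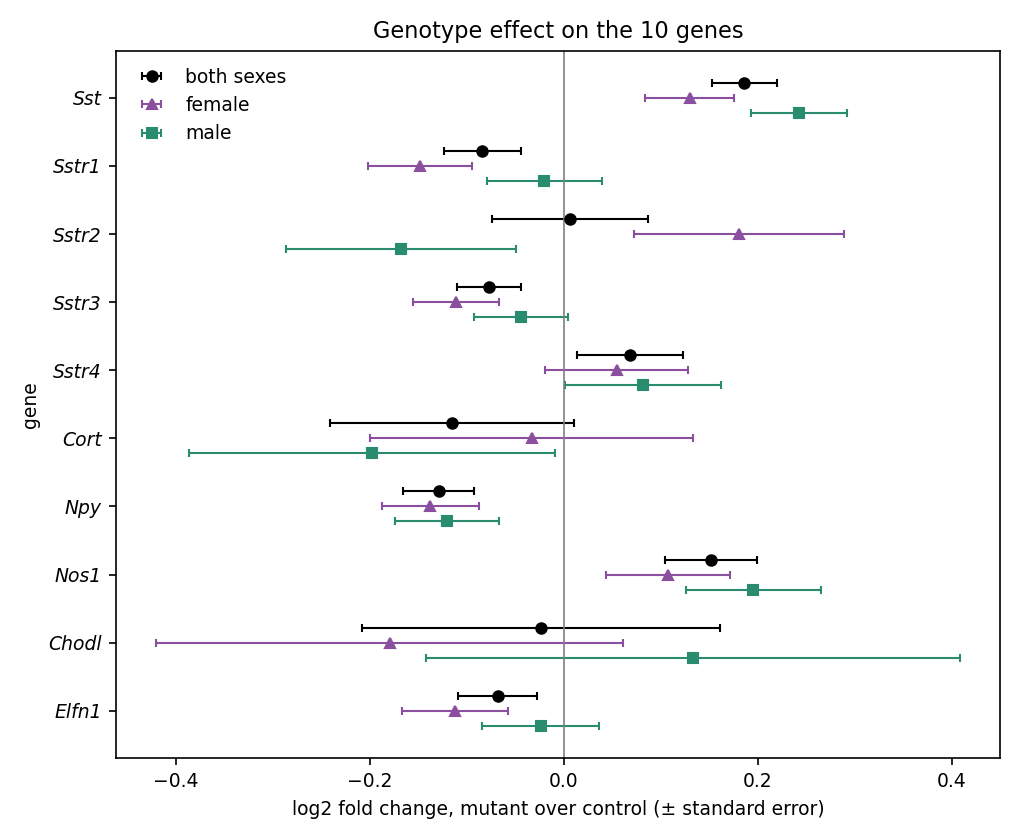
Log2 fold change of mutant over control with its standard error for the 10 genes, over both sexes (circles), in females (triangles) and in males (squares). Sst lies at 0.19 over both sexes, with Nos1 at 0.15 above 0 and Npy at -0.13 below it, and Sstr2 has opposite signs in females and males.

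Taken over the 10 genes, 4 log2 fold changes were above 0 and 6 below, with a median of -0.05, beside a median of -9.4e-05 over all genes tested. Within the 8 groups, Sst and Npy deviated from their group means together (Pearson r = 0.47 over 38 libraries), the highest value among pairs of the 10 genes. Sst and Elfn1 had r = 0.40, Sstr3 and Elfn1 r = 0.39, and Nos1 and Chodl, which mark the same long-range cells, r = 0.38. Sst and Cort had r = 0.36, as had Cort and Chodl, and Chodl rests on 5 to 26 counts in a library. These are descriptions, since all genes of a library share its depth and dissection. The genes whose deviations were most like those of Sst were Mapk8ip1 (r = 0.75), Vegfb (0.71), Jund (0.69), Rps12 (0.67) and Ptpa (0.67). Those most like Npy were Rpl34 (0.73), Cox6c (0.71), Arpc5l (0.71), Mien1 (0.70) and Atp5mpl (0.70). Cort varied most within groups, with an SD of 0.37 on the log2 scale, against 0.11 for Sst and 0.12 for Npy.

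Further genes of the system were examined by list over both sexes. Of all genes tested, edgeR called 193 by genotype, or 1.09%, with 60 higher and 133 lower in mutants. Of 24 other somatostatin-cell genes tested, Tac1, which encodes the substance P precursor and is also a gene of parvalbumin cells and of striatal neurons, fell by 0.27 ± 0.065 (adjusted p = 0.0211 in edgeR), and no other was called by edgeR. Without the 3 libraries with high Cdhr1 the value of Tac1 was -0.24 (adjusted p = 0.177). The log2 fold changes were above 0 for 12 and below 0 for 12 of them, with a median of -0.01. Myh8 had the largest estimate above 0 with an adjusted p under 0.1, at 0.75 ± 0.20 (adjusted p = 0.0523), and was called by DESeq2; without those libraries it stood at 0.40 (adjusted p = 0.635). Cbln4, which encodes a synapse organiser, stood at -0.33 ± 0.11 (adjusted p = 0.160 in edgeR) and was called by limma voom. Of 11 parvalbumin-cell genes, 10 had a log2 fold change below 0, with a median of -0.10. In this group Tac1, Kcnc2, a fast potassium channel (-0.10, adjusted p = 0.0466, and 0.0697 without those libraries), and Syt2, a calcium sensor of fast release (-0.42, adjusted p = 0.0398), fell, and Pvalb itself stood at -0.30 ± 0.084 (adjusted p = 0.0833 in edgeR) and was called by DESeq2 and limma voom. The summed parvalbumin-cell genes ran from 707 to 974 CPM in mutants and from 747 to 1070 CPM in controls.

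On the list of 10 GABA neuron genes, Kcnc1, a fast potassium channel gene best known from parvalbumin cells, fell by 0.10 (adjusted p = 0.0285 in edgeR), the 1 gene of the list that any of the 3 tools called. Gad1 at -0.06, Gad2 at -0.03 and Slc32a1 at -0.07 were not called. Of 11 peptide processing genes, 3 were called, all lower in mutants, beside 1.09% of all genes tested. Vgf, a secreted neuronal precursor, fell by 0.33 ± 0.042 (adjusted p = 2.63e-05). Chga fell by 0.11 (adjusted p = 0.0101) and Scg2 by 0.12 (adjusted p = 0.04999), both granins of dense-core vesicles, and limma voom did not call Scg2, nor did edgeR without the 3 libraries with high Cdhr1 (adjusted p = 0.224). The median of this list was -0.04.

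No gene of the receptor pathway lists was called by edgeR. The counts at an unadjusted p under 0.05 below stand beside a share of 11.2% of all genes. Of 19 genes for signalling below the somatostatin receptors, 4 had an unadjusted p under 0.05, with Gnai1, an inhibitory G protein subunit, at 0.07 (adjusted p = 0.134) and the phosphatase gene Ptpn11 at -0.04 (adjusted p = 0.421). Of 4 neuropeptide Y receptor and peptidase genes, 2 had an unadjusted p under 0.05, with Dpp4, a peptidase that cleaves neuropeptide Y, at 0.25 (adjusted p = 0.0994) and Npy5r at -0.02. Of 15 nitric oxide signalling genes, 2 did, with Gucy1b1, a subunit of the nitric oxide receptor, at 0.07 (adjusted p = 0.177) and Dlg4 at -0.04. DESeq2 and limma voom called 0 in these 3 lists. Of 6 genes for partners of ELFN1, 2 had an unadjusted p under 0.05, with the metabotropic glutamate receptor gene Grm4 at -0.13 (adjusted p = 0.0602) and the kainate receptor gene Grik2 at 0.09 (adjusted p = 0.239). DESeq2 called 1 of them, Grm4, and limma voom 0. Of 14 genes of VIP, CCK and Lamp5 interneurons, none was called by any of these tools and 2 had an unadjusted p under 0.05, with Calb2 at 0.06 and Cxcl14 at -0.08.

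Chronic variable stress left Sst near its unstressed level. Averaged over sex and genotype, the log2 fold change of CVS over NS was -0.01 ± 0.034 (adjusted p = 0.956 in edgeR). No member was called by edgeR in this comparison, against 0.017% of 17671 genes, and 2 had an unadjusted p under 0.05, as did 9.37% of all genes. DESeq2 called 1 member, Npy, against 0.279% of the genes it tested, and limma voom 0. Those with an unadjusted p under 0.05 were Npy and Cort. The median of the 10 genes was -0.03, and 7 of them were below 0, beside a median of 0.0028 over all genes.

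Npy had a log2 fold change of -0.15 ± 0.037 with CVS (adjusted p = 0.125 in edgeR and 0.0370 in DESeq2), and 17 of 20 CVS libraries lay below the mean of the NS libraries of their sex and genotype. In females the estimate was -0.19 ± 0.050 (adjusted p = 0.0937 in edgeR), and in males -0.10 ± 0.054 (adjusted p = 0.970). In female controls, the CVS values of 54.6 to 63.8 CPM given above overlapped the NS values of 62.9 to 83.5 CPM at 1 mouse of each group. The log2 fold change there was -0.30 ± 0.070 (adjusted p = 0.192 in edgeR, 0.0261 in DESeq2). In female mutants it was -0.09 ± 0.071 (adjusted p = 0.808 in edgeR).

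Cort had -0.30 ± 0.13 with CVS over both sexes (adjusted p = 0.472 in edgeR), and -0.45 ± 0.14 without the 3 libraries with high Cdhr1 (adjusted p = 0.202), with 15 of 20 CVS libraries below the mean of their NS libraries. In female controls it stood at 4.28, 8.07, 3.75, 5.82 and 7.96 CPM with CVS, against 9.99, 8.77, 10.96, 11.4 and 9.76 CPM without stress. These groups did not overlap, though the share of all genes without overlap was not counted. The log2 fold change was -0.76 ± 0.18 (adjusted p = 0.239 in edgeR, 0.0212 in DESeq2). In female mutants Cort stood at 7.44, 9.44, 6.60, 4.33 and 7.04 CPM with CVS, against 7.96, 7.91, 9.61, 7.67 and 9.17 CPM without stress, and these overlapped, with a log2 fold change of -0.29 ± 0.18 (adjusted p = 0.740).

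Male Cort values overlapped in both genotypes. Male mutant CVS mice had 5.94, 7.43, 3.74 and 5.57 CPM, against 7.03, 3.77 and 4.64 CPM in male mutant NS mice. Male control CVS mice ran from 2.78 to 8.30 CPM with a median of 5.98 CPM, against 5.04, 6.99, 5.90, 7.52 and 8.98 CPM in male control NS mice. The log2 fold change of Cort in males was -0.08 ± 0.19 (adjusted p = 0.999 in edgeR), and -0.37 ± 0.23 without the 3 libraries with high Cdhr1 (adjusted p = 0.941). The difference in the stress effect on Cort between males and females was 0.45 ± 0.25 (adjusted p = 0.729), which did not pass, and 0.15 ± 0.28 without those libraries (adjusted p = 0.996).

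**Figure D4:**
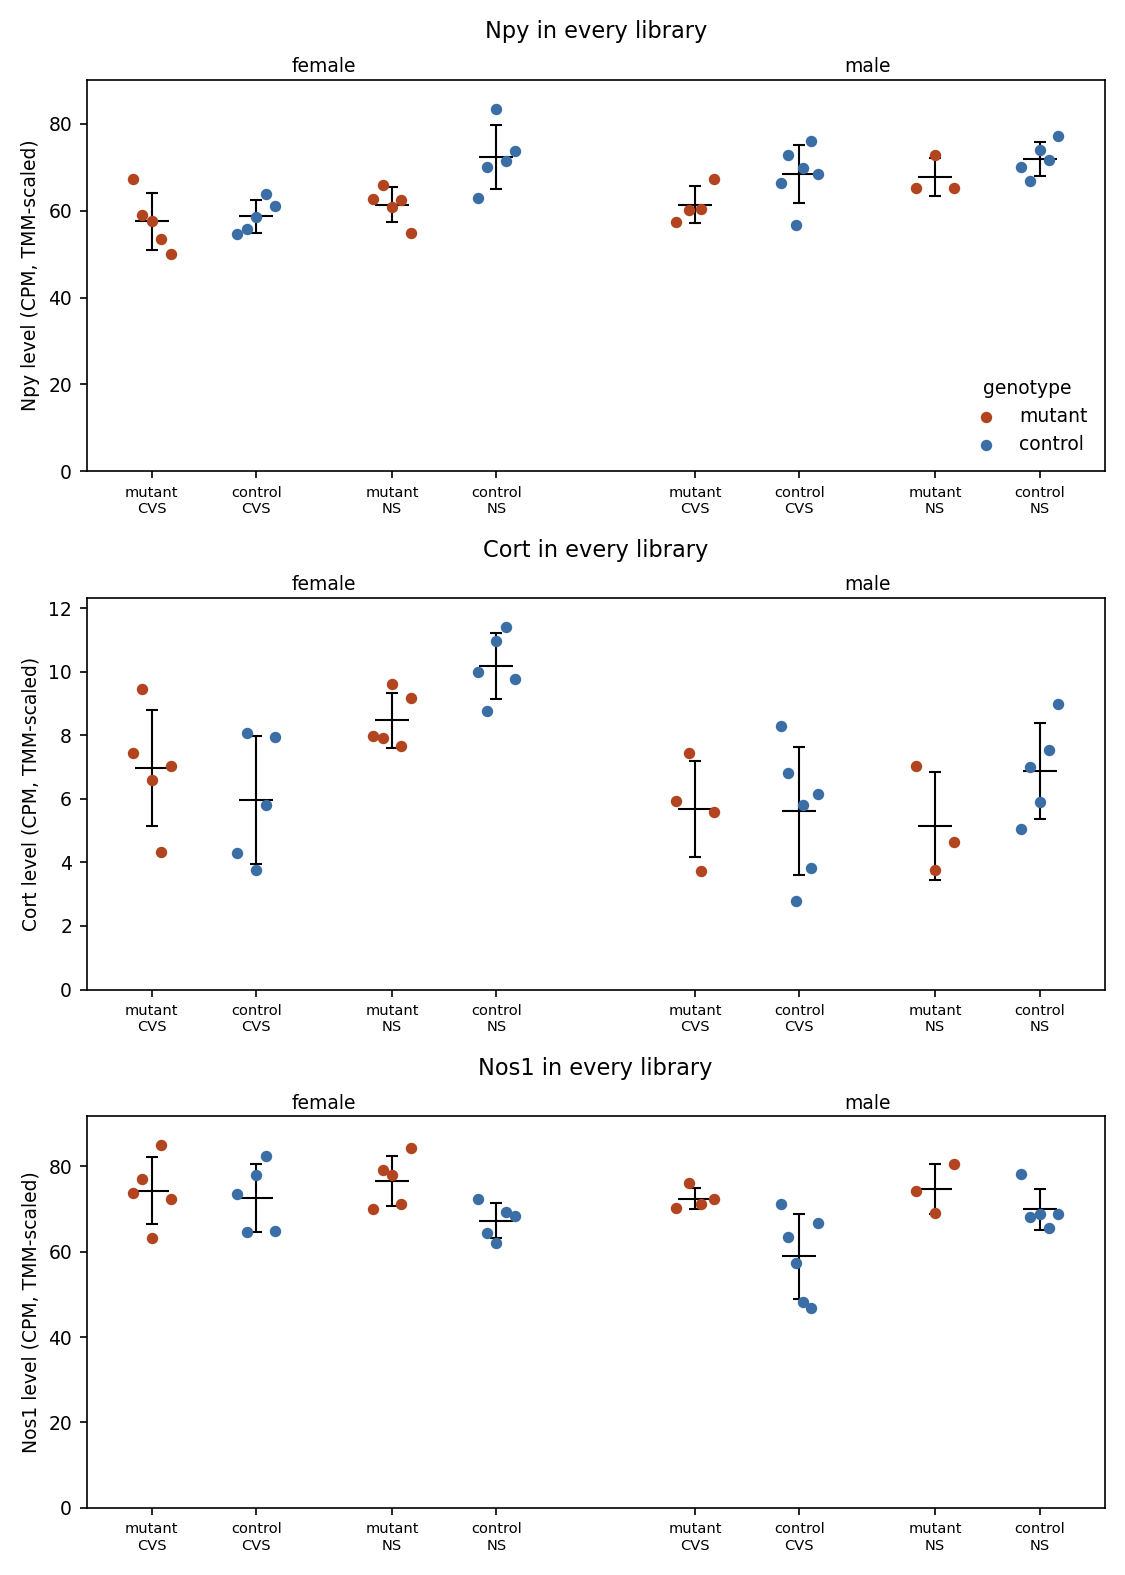
Npy, Cort and Nos1 levels in TMM-scaled CPM in each of the 38 libraries, with group means and SDs. Mutant groups stand left of their controls and CVS left of NS, and the female control CVS mice, at or below 8.07 CPM of Cort, lie below the female control NS mice, at or above 8.77 CPM.

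By sex, 0 members were called for stress in females by edgeR, against 0.0736% of all genes, with 3 members and 11.5% of all genes at an unadjusted p under 0.05. DESeq2 called 1 there, Npy (adjusted p = 0.0229), against 2.36% of the genes it tested, and limma voom 0. The adjusted p of Npy was 0.0419 in edgeR without female mutant CVS replicate 1. In males 0 were called by edgeR, against 0.00566% of all genes, and 0 by DESeq2 or limma voom, with 0 members and 5.11% of all genes at an unadjusted p under 0.05. Within groups, edgeR called 0 members in female controls, with 0% of all genes called and 1433 genes at an unadjusted p under 0.05, 2 of them members. DESeq2 called 2 members there, Npy and Cort, against 0.217% of the genes it tested, and limma voom 0. In female mutants, male controls and male mutants, 0 members were called by any of the 3 tools, and the shares of all genes called by edgeR were 0%, 0.0116% and 0%. At an unadjusted p under 0.05, 1 member passed in female mutants, 1 in male controls and 0 in male mutants. The shares of all genes at that p were 7.91%, 7.39% and 3.38% in the same order. In the male controls the member was Nos1, at -0.24 ± 0.092 (adjusted p = 0.612).

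The share of counts taken by another transcript had higher means with CVS than without stress in the females, which was not tested. The gene ID with the most counts in the table, ENSMUSG00000119584, which has no symbol in the tables used here, took 6.22 ± 0.759% of counts in mutant CVS and 4.80 ± 0.620% in mutant NS females. It took 6.55 ± 1.23% in control CVS and 5.31 ± 0.229% in control NS females (SD, n = 5 each). In the male groups it averaged at most 0.124%. Over both sexes, all 7 astrocyte and all 6 endothelial markers had a log2 fold change below 0 with CVS, none of them called by edgeR. In females alone 6 of 7 astrocyte and 4 of 6 endothelial markers were below 0, and all 7 microglial markers above 0. In female mutants 5 of 6 endothelial markers were above 0. Over both sexes Aqp4, a water channel of astrocytes, had -0.19 (adjusted p = 0.0820 in edgeR) and was called by DESeq2. The summed astrocyte markers ran from 3957 to 5039 CPM in CVS and from 3694 to 5175 CPM in NS libraries, and the summed endothelial markers from 87.7 to 229 CPM in CVS and from 106 to 262 CPM in NS libraries. Their part in the values of Npy and Cort was not tested.

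**Figure D5:**
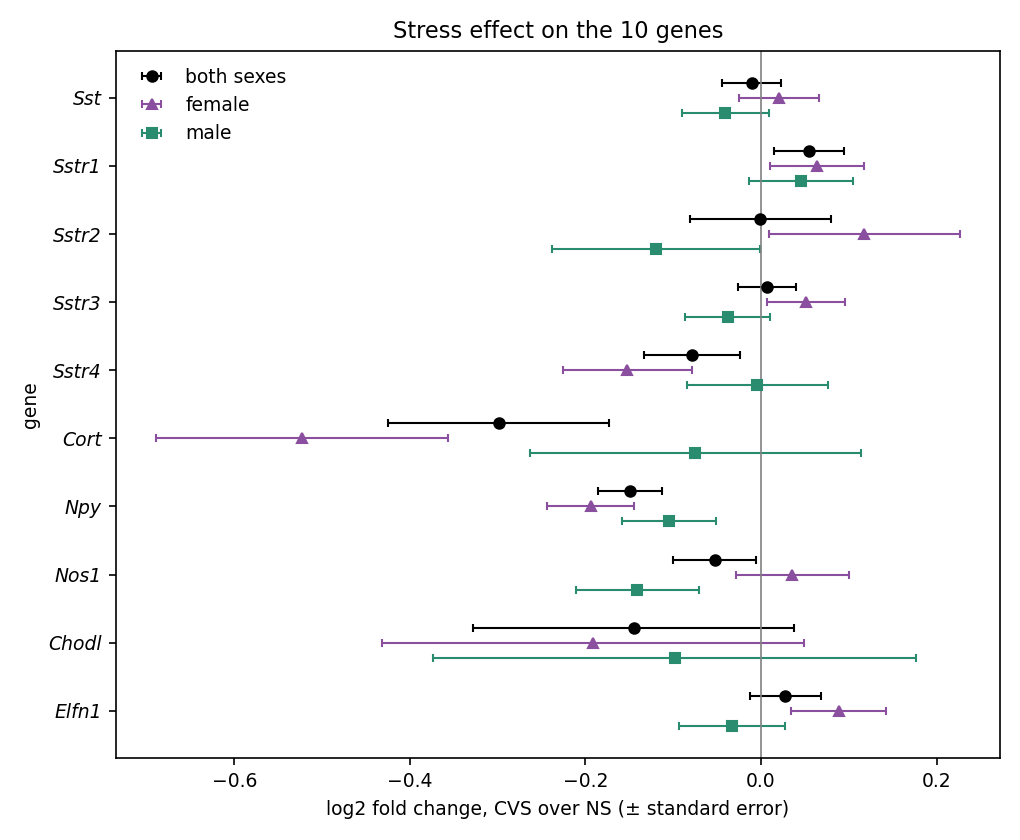
Log2 fold change of CVS over NS with its standard error for the 10 genes, over both sexes (circles), in females (triangles) and in males (squares). Sst lies at -0.01, Npy at -0.15 and Cort at -0.30 over both sexes, with Cort in females at -0.52.

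The receptors and the remaining genes gave smaller estimates with stress, none of them called. Over both sexes Sstr1 stood at 0.05 ± 0.040, Sstr2 at -0.00079 ± 0.080, Sstr3 at 0.01 ± 0.033 and Sstr4 at -0.08 ± 0.054 on the log2 scale. Without the 3 libraries with high Cdhr1 these were 0.08, 0.09, 0.02 and -0.01 in the same order, and Sst stood at 0.0016. Nos1 stood at -0.05 ± 0.047, Chodl at -0.14 ± 0.18 and Elfn1 at 0.03 ± 0.041, or 0.09 ± 0.045 without those libraries. In females Sstr4 had -0.15 ± 0.073 with an unadjusted p of 0.0432 (adjusted p = 0.415 in edgeR). Differences of the stress effect between the sexes were not called for any member, nor for any gene, by edgeR (0% of the genes tested, 1269 of which had p under 0.05 before adjustment), while DESeq2 called 2 genes and limma voom 0.

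Of the 161 genes on the lists that were tested, 0 were called for stress by edgeR and by limma voom, 1 by DESeq2, Aqp4, and 22 had an unadjusted p under 0.05, beside 9.37% of all genes. For the lists below, the gene with the smallest p in each direction is given. Among GABA neuron genes these were the transcription factor gene Dlx1 at 0.13 (adjusted p = 0.336) and Gad2 at -0.01, and among other somatostatin-cell genes Pdyn, the dynorphin precursor, at 0.13 (adjusted p = 0.328) and Rbp4 at -0.12. In the parvalbumin list Kcns3 stood at 0.06 and Cox6a2 at -0.19, and in the list of other interneurons Adarb2 at 0.12 and Lamp5 at -0.07. Among signalling genes below the somatostatin receptors, Kcnj9, a potassium channel subunit that they open, stood at 0.06 (adjusted p = 0.404) and Adcy2, an adenylyl cyclase, at -0.04. In peptide processing Scg5 stood at 0.06 and Scg2 at -0.07. Among receptors of neuropeptide Y and their peptidase, Npy2r stood at 0.10 and Dpp4 at -0.14. In nitric oxide signalling Gucy1a2 stood at 0.06 and Nos3 at -0.19, and among partners of ELFN1 Elfn2 stood at 0.06 and Grm7 at -0.07 (adjusted p = 0.404).

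Whether stress acted differently in mutants was tested as the stress effect in mutants minus that in controls, averaged over the sexes. No member was called by edgeR, DESeq2 or limma voom, with 0% of all genes called, 877 genes at an unadjusted p under 0.05 and 0 members among these. The value was -0.03 ± 0.067 for Sst (adjusted p = 0.985), 0.06 ± 0.073 for Npy (adjusted p = 0.955) and 0.45 ± 0.25 for Cort (adjusted p = 0.931), on the log2 scale. Without the 3 libraries with high Cdhr1 the value was 0.02 ± 0.083 for Sst (adjusted p = 0.993) and 0.30 ± 0.28 for Cort (adjusted p = 0.906). The stress effects on Npy and Cort in female controls and in female mutants, given above, were therefore not shown to differ.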

How the data were processed

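Total RNA of 38 cortices (400 ng each, from 1 mm sections) was sequenced as 150-bp paired-end reads, per the labels' protocols. The authors deposited raw counts per gene. fastp 0.23.2, STAR 2.7.10b, featureCounts and GRCm39 are named in the submitters' processing notes, and the strand setting is not given in the sources used here. Counts were tested with edgeR 4.0.16 (R 4.3.3) after TMM scaling and filterByExpr (minimum count 10, minimum total 15): 1 fit of 8 groups, and 1 of 4 groups per sex for comparisons within a sex and genotype or stress. The threshold was an adjusted p of 0.05. DESeq2 1.42.0, limma 3.58.1 voom, RLE scaling, no filter, each library left out and the 3 libraries with high Cdhr1 left out were tried. Some adjusted p-values from DESeq2 are missing through its own filter and stay out of its shares. Exon lengths are from GENCODE vM21. Correlations used log2 CPM with a pseudocount of 0.5. Ratio tests used scipy 1.17.1. On simulated data, only the edgeR fit of 8 groups was tested, for the genotype comparison over both sexes. The 10 genes and the lists were chosen with earlier results of these data known. Genes outside the 10 were named by rule: those called, up to 6 a list, or else the smallest p in each direction, and the 5 most like Sst and Npy. Myh8, Pvalb, Gad1, Gad2, Slc32a1 and the markers of other cells were added after their values were seen. The level of the targeted gene and some marker results are not reported here. Replicates of a group were separate mice by their animal numbers, which were not shared between groups.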

Additional observations from a re-analysis of the deposited data

Results flagged for a closer look

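Among 70 group values of the 10 genes with 4 to 6 samples, 4 had a highest sample far from the others by Dixon's test, where chance flags about 1 in 20 groups. Sstr2 stood at 22.6 CPM in female control CVS replicate 1, while the nearest of the other 4 mice had 15.9 CPM. Nos1 stood at 78.3 CPM in male control NS replicate 1, with the nearest at 68.8 CPM. Chodl stood at 1.06 CPM (26 counts) in male control CVS replicate 6, with the nearest at 0.510 CPM, and at 0.671 CPM (15 counts) in male control NS replicate 3, with the nearest at 0.531 CPM.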

How the results depend on the processing

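No paired analysis was possible because the groups share no replicate numbers in the labels. Of 1488 recomputed log2 fold changes of the 10 genes, 1409 kept direction and side of the threshold, 15 passed it, 4 lost it and 60 changed sign. Members called under DESeq2 were 3 for genotype over both sexes, 1 for stress, 1 for stress in females and 2 for stress in female controls. With no filter on low counts, 0 were called for genotype in males, 1 each for genotype in male NS, male CVS and female NS mice, and 2 for stress in female controls. Without the 3 libraries with high Cdhr1, 0 were called for genotype in males. With 1 library left out, the number called ran from 1 to 2 for genotype over both sexes, from 0 to 1 for genotype in males and from 0 to 1 for stress in females. The cause was not tested.

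Signs changed without the 3 libraries with high Cdhr1 for genotype in Sstr2 (-0.090), Sstr4 (-0.0010), Cort (0.032) and Chodl (0.0048), and for stress in Sst (0.0016) and Sstr2 (0.093). Sstr2 with stress also changed sign under RLE (2.6e-05), DESeq2 (0.00051) and limma voom (0.0021). With 1 library left out, Sstr2 ran from -0.053 to 0.041 and Chodl from -0.086 to 0.071 for genotype, and for stress Sst from -0.024 to 0.0036, Sstr2 from -0.036 to 0.057, Sstr3 from -0.0087 to 0.016, Elfn1 from -0.0014 to 0.057 and Cort in males from -0.17 to 0.069. None of these was called.

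Counts of all genes called moved as well: for genotype over both sexes 193, with 93 to 299 under the alternatives and 101 to 233 with 1 library left out. For stress over both sexes these were 3, 3 to 36 and 0 to 16, for genotype in males 25, 13 to 114 and 7 to 106, for genotype in females 72, 63 to 132 and 27 to 81, for stress in females 13, 13 to 150 and 0 to 71, and for stress in males 1, 1 to 10 and 0 to 6. For the interaction they were 0, 0 to 3 and 0 to 0, and for sex differences of genotype 1, 0 to 5 and 0 to 2, and of stress 0, 0 to 6 and 0 to 4. Within a sex, genotype gave 3 with 0 to 11 in male NS, 9 with 5 to 43 in male CVS, 21 with 7 to 118 in female NS and 4 with 2 to 23 in female CVS mice under the alternatives, and stress 2 with 0 to 23 in male controls, 0 with 0 to 8 in male mutants, 0 with 0 to 51 in female controls and 0 with 0 to 36 in female mutants. Depth limits Chodl, with at most 26 counts in a library.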
